A study of Arabidopsis thaliana with 12 samples.

Results

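Among 22746 probe sets of an Affymetrix Arabidopsis array, 72 were lower at dawn than at every other sampled time of day by a clear margin. A probe set entered this group when the highest of its 3 values at dawn lay at least 1 log2 unit below the lowest of the 9 values from the other times, and when that lowest value was at least 6. GIGANTEA (GI) had been left out beforehand, and with a margin of 0.98 it would have missed the first condition. All values come from the aerial part of 10-day-old Arabidopsis thaliana seedlings, ecotype Columbia, of the CCA1-ox line, which overexpresses CIRCADIAN CLOCK ASSOCIATED 1 (CCA1). Plates held agar with 1% sucrose, each day had 16 h of light and 8 h of darkness, and 3 arrays were hybridised for each of ZT0 (6am), ZT6 (12pm), ZT12 (6pm) and ZT18 (12am). In Zeitgeber time (ZT), hours are counted from the moment the lights come on. ZT0 closed the night, ZT6 and ZT12 lay in the light and ZT18 lay in the dark. Every group carries the overexpressed CCA1, and wild-type plants were not analysed here, so no value below tells an effect of CCA1 from the ordinary daily course.

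CCA1 is a MYB transcription factor that in wild-type plants accumulates around dawn and represses genes expressed in the evening. In the overexpressing line its transcript is made from a constitutive promoter, and rhythms under light and dark cycles are then shaped to a large extent by light itself. Many Arabidopsis transcripts for chloroplast functions, carbon metabolism and growth are known to rise during the day and to be low at the end of the night. No probe set is paired with CCA1 in the platform table, and its own level is not analysed here.

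The labelled tissue could be checked with few named probe sets. Of 9 leaf markers 2 had a named probe set. Their means over the 12 arrays were 13.60 for SBPASE and 14.03 for RCA, both enzymes or regulators of carbon fixation. Of 10 root markers 4 had a named probe set. EXPA7, EXPA18 and PRX44, which are expressed in roots, lay at the floor of the scale (2.06). PYK10, on the same root list, averaged 13.10, close to the leaf markers, so the 4 root markers disagreed. No probe set was named for the 5 seed markers or the 3 flower markers. The chip controls for actin, GAPDH and ubiquitin have probe sets at both ends of each transcript, and the excess of the 3' over the 5' signal, which is larger for shortened RNA, was 4.29 to 4.33 on the ZT0 arrays and 4.68 to 5.28 on the ZT18 arrays. Over the 9 arrays other than ZT18 it ran from 4.12 to 4.43, so the ZT0 arrays lay inside the range of the light times and the ZT18 arrays lay above all others. One label, the time of harvest among the characteristics, disagreed with the title on 9 of 12 arrays. Groups follow the title, and no probe set met the rule when arrays were grouped by the other label.

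By the median over the 72 transcripts, the level was near its highest at both light times, lower at ZT18 and lowest at ZT0. Measured as the median over the 72 of the difference from the ZT0 mean, they stood 2.67 above ZT0 at ZT6, 2.74 above it at ZT12 and 2.00 above it at ZT18 on the log2 scale. The highest time mean was 2.72-fold to 50.3-fold above the ZT0 mean, with a median of 7.56-fold. That highest mean belonged to ZT6 for 28 probe sets, to ZT12 for 36 and to ZT18 for 8. These values chose the group and carry no test. By the median, 29.1% of the difference between ZT12 and ZT0 was absent at ZT18, and in 10 of 72 this share was over 50%. The rule kept every ZT18 array at least 1 log2 unit above the highest ZT0 array, which limits this share in advance. The margin itself ran from 1.01 to 2.19 log2 units, with a median of 1.29. In 61 of the 72 the lowest array outside ZT0 was a ZT18 array, most often ZT18 replicate 3 (32 probe sets). The highest ZT0 array was replicate 3 in 49. These counts come from values the rule used, and the shares over all tested probe sets were not counted. Without ZT0 replicate 3 the rule found 139 probe sets, and without ZT18 replicate 3 it found 116, where leaving out an array can only widen the group. By the same rule 6 probe sets were lowest only at ZT6, 1 only at ZT12 and 22 only at ZT18.

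**Figure D1:**
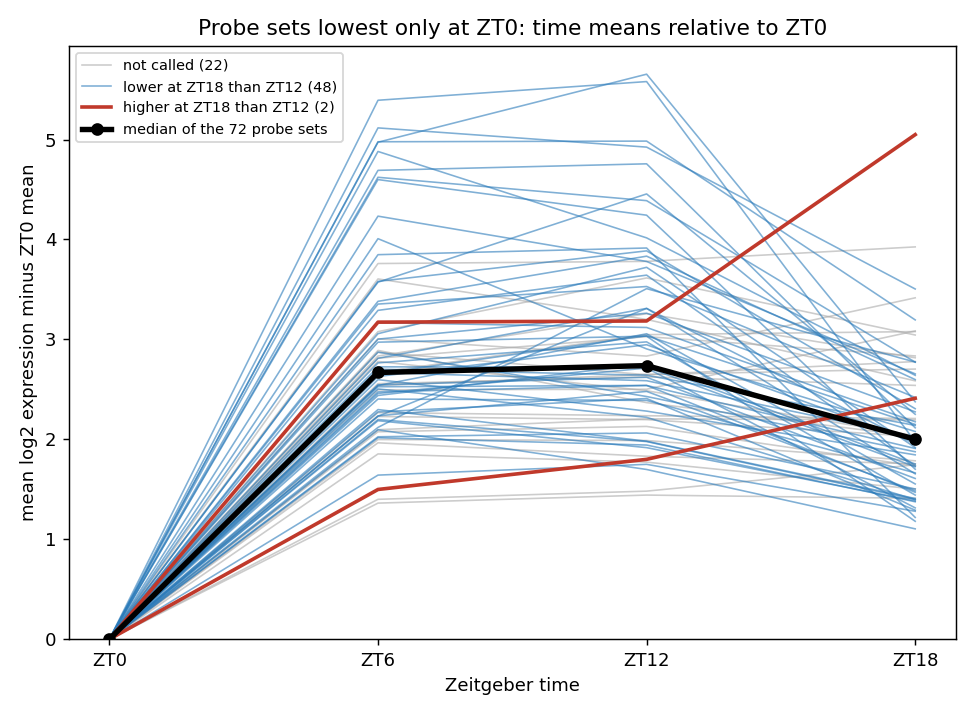
Mean log2 expression at each Zeitgeber time minus the ZT0 mean, 1 line for each of the 72 probe sets, coloured by the limma call for ZT18 against ZT12, with their median in black. The median stands at 2.67 at ZT6, 2.74 at ZT12 and 2.00 at ZT18, and the 2 red lines rise at ZT18 where 48 blue lines fall.

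The platform annotation pairs 45 of the 72 probe sets with a single gene and does not list the other 27. The widest margin among the named genes belonged to AT5G01015, a gene of unknown function. Its ZT0 arrays read 7.70, 6.96 and 7.52, its ZT6 arrays 10.39, 10.15 and 10.14, its ZT12 arrays 10.70, 10.68 and 10.57, and its ZT18 arrays 10.62, 10.11 and 9.89. The ZT0 arrays stood 2.19 below the nearest other array, and the ZT18 arrays overlapped those of ZT6. AT5G12110, which encodes a subunit of a translation elongation factor, had a margin of the same size. It read 5.65, 4.07 and 5.77 at ZT0, 9.29, 8.78 and 8.70 at ZT6, 8.89, 9.04 and 8.90 at ZT12, and 9.54, 9.76 and 7.96 at ZT18. Here ZT0 replicate 2 and ZT18 replicate 3 lay apart from their partners. AT3G05600, from the epoxide hydrolase family, averaged 7.60 ± 0.24 at ZT0 (SD, n = 3). At the other times its arrays overlapped, with means of 9.87 ± 0.06 for ZT6, 9.84 ± 0.11 for ZT12 and 9.81 ± 0.05 for ZT18.

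**Figure D2:**
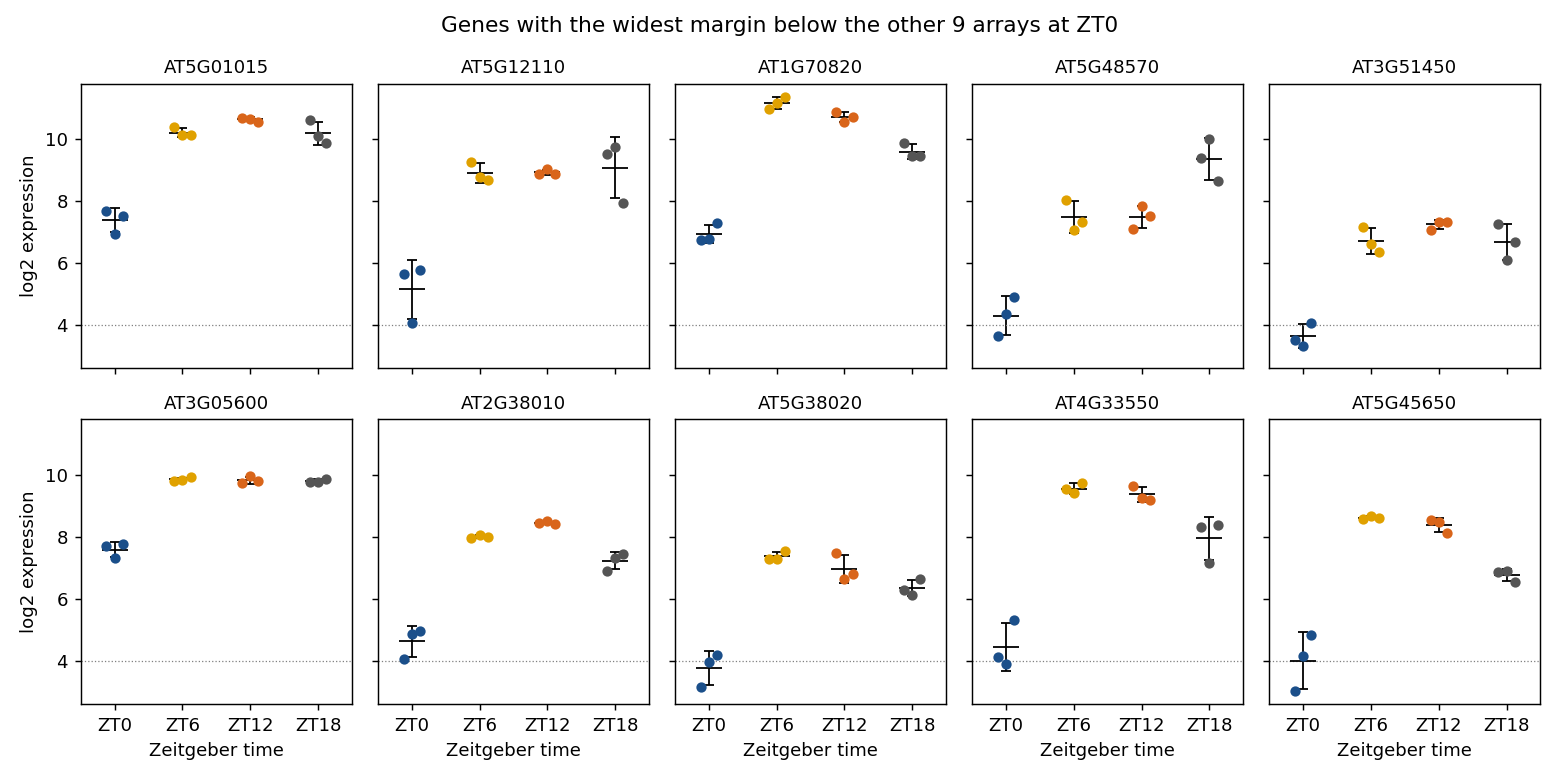
Log2 expression on each of the 12 arrays for the 10 named genes with the widest margin, by Zeitgeber time. Points are arrays, black bars are mean and SD (n = 3), and the dotted line marks the detection limit of 4; in each panel all 3 ZT0 points lie below the other 9.

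At the other end, the margin was 1.02 for NCRK, a receptor-like kinase gene, and 1.01 for both AT5G52540, a gene for a membrane protein of unknown function, and AT1G09500, related to cinnamyl alcohol dehydrogenase. Just outside the limit lay MSRB6, a methionine sulfoxide reductase gene, whose highest ZT0 value of 8.83 and lowest other value of 9.83 missed the margin narrowly. Its means were 11.57 ± 0.17 at ZT6, 11.92 ± 0.15 at ZT12 and 10.16 ± 0.32 at ZT18 (SD, n = 3). Both other probe sets just outside had no named gene.

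Whether the 72 transcripts were already lower at ZT18 than at the light times, or changed between ZT6 and ZT12, was tested in contrasts without ZT0. Lights went off between ZT12 and ZT18, and no array was taken within that interval. A lower value at ZT18 therefore does not tell whether a decline began in the light or in the dark. The fit took its spread from all 12 arrays, those of ZT0 included. A fit without the ZT0 arrays called 54 of 72 between ZT18 and ZT12 in either direction, where 51% of all tested probe sets were called. It called 54 of 72 between ZT18 and ZT6 (47% of all tested) and 4 between ZT12 and ZT6 (2.59% of all tested). Between ZT12 and ZT6 only 3 of 72 differed by limma, where 2.12% of all 14016 tested probe sets were called. Between ZT18 and ZT12, 48 were lower and 2 higher, and 22 were not called. Over all tested probe sets 24.4% were called lower at ZT18 and 26.1% higher. The median difference of ZT18 minus ZT12 was -0.68 over the 72 and 0.01 over all tested. Between ZT18 and ZT6, 49 were lower and 3 higher, against 23.4% and 22.8% of all tested probe sets, with a median difference of -0.75 over the 72 and -0.01 over all. At ZT18, 45 of the 72 were lower than at both light times, and in 48 every ZT18 array lay below every ZT6 and ZT12 array. The shares of all tested probe sets that met these joint conditions were not counted, so neither number has a background here. Among the 10966 probe sets that, like the members, reached 6 on all 9 arrays outside ZT0, 24.5% were called lower at ZT18 than at ZT12 and 23.5% lower than at ZT6. The rule sets a minimum for these arrays but none for their order. To be a member, a probe set had to stay at least 1 log2 unit above its highest ZT0 value on each of them. Such a rule can favour a small spread on the arrays compared here. The median SD over the 72 was 0.1305 at ZT6, 0.1423 at ZT12 and 0.2183 at ZT18. Over the 10966 it was 0.1054, 0.1355 and 0.1819. What the rule adds to the calls was not tested.

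The RNA quality signal was 4.68 to 5.28 on the ZT18 arrays and 4.12 to 4.43 on the other 9, without overlap. Time and RNA quality therefore cannot be told apart at ZT18, and the part of RNA quality in these calls was not tested. A covariate tied to ZT18 in this way also widens the error of each ZT18 contrast. A call can thus be lost even where the difference is not smaller. With the RNA quality signal as a covariate, 21 of 72 were called between ZT18 and ZT12 and 27 between ZT18 and ZT6, all of them lower. Of all tested probe sets, 8.29% and 11.1% were called lower in that fit. The median differences over the 72 were then -0.65 and -0.66. Of the 31 named genes called between ZT18 and ZT12, 13 kept the call with the covariate, all of them lower at ZT18: AT1G54050, AT1G69523, AT1G74070, AT2G27420, AT2G38010, AT2G43550, AT3G04650, AT3G28220, AT4G24350, AT5G02890, AT5G38510, EXPB3 and LrgB. Whether same-time arrays came from separately grown plants is not stated, and the p-values then cover only array-to-array spread, part of which may be technical.

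**Figure D3:**
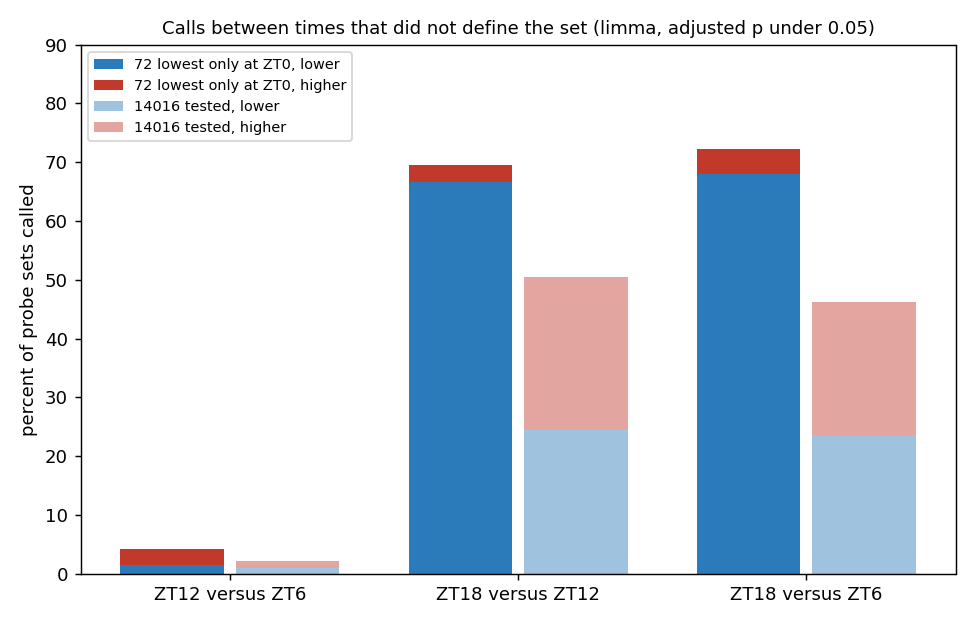
Percent of probe sets called by limma (adjusted p under 0.05) in 3 comparisons without ZT0, for the 72 probe sets lowest only at ZT0 (full colour) and all 14016 tested (pale), with lower calls in blue and higher calls in red. For ZT18 versus ZT12 the lower calls reach 66.7% of the 72 and 24.4% of all tested.

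Of the 3 calls within the light, 1 had a gene. AT2G43550, which encodes a small cysteine-rich peptide of the defensin-like kind, read 11.54, 11.44 and 11.46 at ZT12 and 10.83, 10.76 and 10.85 at ZT6. The groups did not overlap, and the difference was 0.66 (SE 0.12, limma adjusted p = 0.0164), a call that was lost without ZT6 replicate 2 or 3 or with any 1 of the ZT12 arrays left out. The probe set 249850_at was higher at ZT12 than at ZT6 by 1.39 and 263433_at was lower, with 8.47, 8.75 and 8.26 at ZT12 and 9.73, 9.50 and 9.56 at ZT6, both with limma adjusted p = 0.0169. These calls were lost without ZT12 replicate 1 or without any single ZT6 array, and that of 263433_at also without ZT12 replicate 3. Both were named after their values were seen.

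Grouping by role put 8 of the 45 under chloroplast and carbon metabolism, and the share of such genes among all tested was not counted. The group does not hold every chloroplast gene: NANA, a chloroplast protease gene that was higher at ZT18, was grouped with the proteases. Of these 8 genes, 6 were lower at ZT18 than at ZT12 and 2 did not pass. AT1G70820, a gene of the phosphoglucomutase family, whose enzymes interconvert sugar phosphates, read 6.76, 6.79 and 7.30 at ZT0, 11.00, 11.17 and 11.39 at ZT6, 10.88, 10.57 and 10.74 at ZT12, and 9.88, 9.46 and 9.47 at ZT18. The ZT6 mean was 18.8-fold above the ZT0 mean, and ZT18 lay below ZT12 by a log2 difference of -1.12 (SE 0.17, limma adjusted p = 0.000150). With the RNA quality covariate this difference was -0.73 (limma adjusted p = 0.134). LrgB encodes a carrier of the plastid envelope that moves glycolate and glycerate in photorespiration. It read 9.35, 8.74 and 8.81 at ZT0, 11.59, 11.60 and 11.59 at ZT6, 12.07, 11.79 and 11.88 at ZT12, and 11.04, 11.15 and 10.64 at ZT18. The 3 ZT6 arrays were almost identical, and all ZT18 arrays lay below all light arrays (ZT18 minus ZT12 -0.97, SE 0.16, limma adjusted p = 0.000345).

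Other genes of this group were called lower at ZT18 than at ZT12 as well. AT1G74070, which encodes a chloroplast prolyl isomerase of the cyclophilin type, averaged 9.15 ± 0.23 at ZT18 and 10.16 ± 0.19 at ZT12 (SD, n = 3). AT5G02940, a gene for an ion channel of the plastid envelope, averaged 10.41 ± 0.08 at ZT18 and 11.13 ± 0.12 at ZT12. COR15B, a cold-induced protein of the chloroplast stroma, averaged 11.66 ± 0.04 at ZT18 and 12.65 ± 0.22 at ZT12. AT2G38740, a sugar phosphatase gene, was lower as well (-0.57, SE 0.15). With the RNA quality covariate AT5G02940, COR15B and AT2G38740 lost their calls, at -0.60, -0.75 and -0.51 (limma adjusted p = 0.267, 0.313 and 0.28). AT3G48420, a plastid sugar phosphatase gene, was not called. It read 12.08, 11.74 and 12.05 at ZT0, 13.27, 13.27 and 13.42 at ZT6, 13.38, 13.40 and 13.42 at ZT12, and 13.49, 13.32 and 13.30 at ZT18, where the night arrays overlapped the light arrays (ZT18 minus ZT12 -0.03, SE 0.10, limma adjusted p = 0.805). Cpn60beta2, a subunit of the plastid chaperonin that folds imported proteins, likewise did not pass (-0.20, SE 0.11, limma adjusted p = 0.155), with 9.94 ± 0.20 at ZT0, 11.92 ± 0.13 at ZT12 and 11.72 ± 0.13 at ZT18.

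The 6 protease genes were split. AT2G27420, a papain-type cysteine protease gene, had a 47.8-fold range, with 4.76, 4.96 and 4.84 at ZT0, 10.43, 10.17 and 10.14 at ZT6, 10.32, 10.44 and 10.55 at ZT12, and 7.14, 6.99 and 6.35 at ZT18. The ZT18 arrays lay between the light and the dawn arrays without overlap, and their difference from ZT12 was -3.60 (SE 0.18, limma adjusted p = 3.49e-08), the most negative among the 72. AT5G45650, a subtilisin-like protease gene, was lower at ZT18 by -1.62 (SE 0.33), AT5G38510, a rhomboid-family membrane protease gene, by -1.07 (SE 0.12), and scpl46, a serine carboxypeptidase-like gene, by -0.53 (SE 0.15). The call of scpl46 was lost without ZT12 replicate 2 and with the RNA quality covariate (-0.88, limma adjusted p = 0.0533). AT2G39850, a second subtilisin-like gene, averaged 8.87 ± 0.19 at ZT18 and 8.95 ± 0.23 at ZT12 and was not called.

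NANA, which encodes an aspartic protease of the chloroplast, was higher at ZT18 than at ZT12. Its arrays read 6.09, 5.94 and 6.15 at ZT0, 7.42, 7.75 and 7.49 at ZT6, 7.71, 7.89 and 7.97 at ZT12, and 8.45, 8.67 and 8.28 at ZT18. All ZT18 arrays stood above all light arrays, and ZT18 exceeded ZT12 by 0.61 (SE 0.14, limma adjusted p = 0.00355). With the RNA quality covariate the difference was 0.23 (limma adjusted p = 0.589).

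Among 4 genes for protein synthesis and folding, AT5G48570 was the other transcript that was higher at ZT18. It encodes a co-chaperone of the FK506-binding family, known to be induced by heat. It read 3.66, 4.37 and 4.91 at ZT0, 8.06, 7.07 and 7.33 at ZT6, 7.11, 7.84 and 7.54 at ZT12, and 9.39, 10.02 and 8.67 at ZT18. ZT18 exceeded ZT12 by 1.86 (SE 0.38, limma adjusted p = 0.00136), with no overlap between these groups, and by 1.03 with the RNA quality covariate (limma adjusted p = 0.351). The small heat-shock gene AT1G54050 showed the opposite sign, with 8.77, 9.38 and 8.21 at ZT18 and 10.02, 9.61 and 9.72 at ZT12 (SE of the difference 0.23, limma adjusted p = 0.00342), and the difference was -1.64 with the RNA quality covariate. AT4G38020, an RNA methyltransferase gene, was lower at ZT18 by -0.47 (SE 0.12), and the elongation factor gene AT5G12110 was not called (0.14, SE 0.47).

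All 3 genes for defence peptides and a lectin were highest at ZT12 and lower at ZT18. AT2G43550 read 9.92, 9.53 and 9.58 at ZT18 against the ZT12 values given above (-1.80, SE 0.12, limma adjusted p = 1.91e-07). Its ZT0 arrays read 7.76, 7.61 and 7.91. AT1G66100, a thionin gene, whose product is an antimicrobial peptide, read 10.91, 10.66 and 9.81 at ZT18 and 11.75, 11.48 and 11.48 at ZT12 (-1.11, SE 0.22). The legume-type lectin gene AT5G03350 read 7.05, 6.69 and 6.55 at ZT18 and 9.20, 7.99 and 8.06 at ZT12 (-1.66, SE 0.29), with ZT12 replicate 1 well above its partners.

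Of 7 genes for lipids and the cell surface, 5 were lower at ZT18 than at ZT12. EXPB3 encodes a beta-expansin, a protein that loosens cell walls. Its arrays read 6.49, 6.66 and 6.49 at ZT0, 10.36, 10.35 and 10.47 at ZT6, 10.76, 10.32 and 10.31 at ZT12, and 7.75, 7.78 and 7.77 at ZT18. The ZT18 arrays were nearly equal and lay below all light arrays (-2.70, SE 0.13, limma adjusted p = 2.54e-08). The lipid transfer protein genes AT4G33550 and AT1G48750 were lower at ZT18 by -1.42 (SE 0.36) and -1.50 (SE 0.22). With the RNA quality covariate the difference of AT4G33550 was -0.06 (limma adjusted p = 0.961). AT4G33550 spanned a 34.7-fold range, with 4.12, 3.91 and 5.34 at ZT0, close to the detection limit of 4. AT2G38010, a ceramidase gene of sphingolipid breakdown, was lower by -1.23 (SE 0.21), and AT1G31550, a GDSL-type lipase gene, by -0.63 (SE 0.19). The call of AT1G31550 was lost without ZT18 replicate 2 and with the RNA quality covariate (-0.36, limma adjusted p = 0.546). PMEAMT, which methylates phosphoethanolamine on the way to choline lipids, averaged 10.38 ± 0.31 at ZT18 and 10.77 ± 0.14 at ZT12 and was not called (limma adjusted p = 0.0707). AT4G17470, a thioesterase family gene, was also not called (0.58, SE 0.41).

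Of 10 other enzyme genes, 5 were lower at ZT18 than at ZT12 and 5 were not called. AT1G69523, a methyltransferase gene, read 7.98, 8.16 and 7.98 at ZT18 and 9.77, 9.88 and 10.03 at ZT12 (-1.85, SE 0.11, limma adjusted p = 9.09e-08). Its ZT0 arrays read 6.89, 6.88 and 6.81. AT1G09500 read 7.22, 6.42 and 6.12 at ZT18 and 9.08, 8.72 and 8.58 at ZT12 (-2.20, SE 0.36). AT4G24350, of the nucleoside phosphorylase family, AT5G02890, an acyltransferase gene, and AT3G04650, an oxidoreductase gene, were lower by -1.53, -1.40 and -0.82. Of the 5 not called, AT3G51450, a strictosidine synthase-like gene, had the widest margin (2.04), with ZT0 arrays at 3.53, 3.32 and 4.07. AT5G09300, the E1 alpha subunit of branched-chain keto acid breakdown, averaged 6.00 ± 0.93 at ZT0, 8.65 ± 0.32 at ZT12 and 8.78 ± 0.20 at ZT18, and ZT0 replicate 3 (7.06) stood above replicates 1 and 2. AT5G38020, a methyltransferase gene, and AT1G31710, a copper amine oxidase gene, were not called against ZT12 but were lower at ZT18 than at ZT6 (-1.02 and -0.74, limma adjusted p = 0.00816 and 0.00896). With the RNA quality covariate both calls were lost, at -0.52 for AT5G38020 (limma adjusted p = 0.456) and -0.31 for AT1G31710 (limma adjusted p = 0.551). A second probe set of AT1G31710 did not reach the detection limit, with a highest ZT0 value of 2.48, so this gene rests on a single informative probe set.

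The last 7 genes serve transport and signalling or have no known function, and 4 of them were lower at ZT18. AT3G28220, a gene for a TRAF-like domain protein, read 6.15, 6.18 and 6.47 at ZT18 and 8.68, 8.94 and 9.12 at ZT12 (-2.64, SE 0.32, limma adjusted p = 2.70e-05). AT1G22160, an FLZ-type zinc finger gene, had ZT0 arrays of 8.58, 8.60 and 8.59 and ZT18 arrays of 9.63, 9.72 and 9.74, below 10.27, 10.48 and 10.11 at ZT12. AT1G51805, a receptor kinase gene, and AT3G53960, a gene of the nitrate and peptide transporter family, were lower by -0.56 each, and the call of AT3G53960 (limma adjusted p = 0.0466) was lost in 9 of 22 alternative settings. AT5G01015, NCRK and AT5G52540 were not called.

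**Figure D4:**
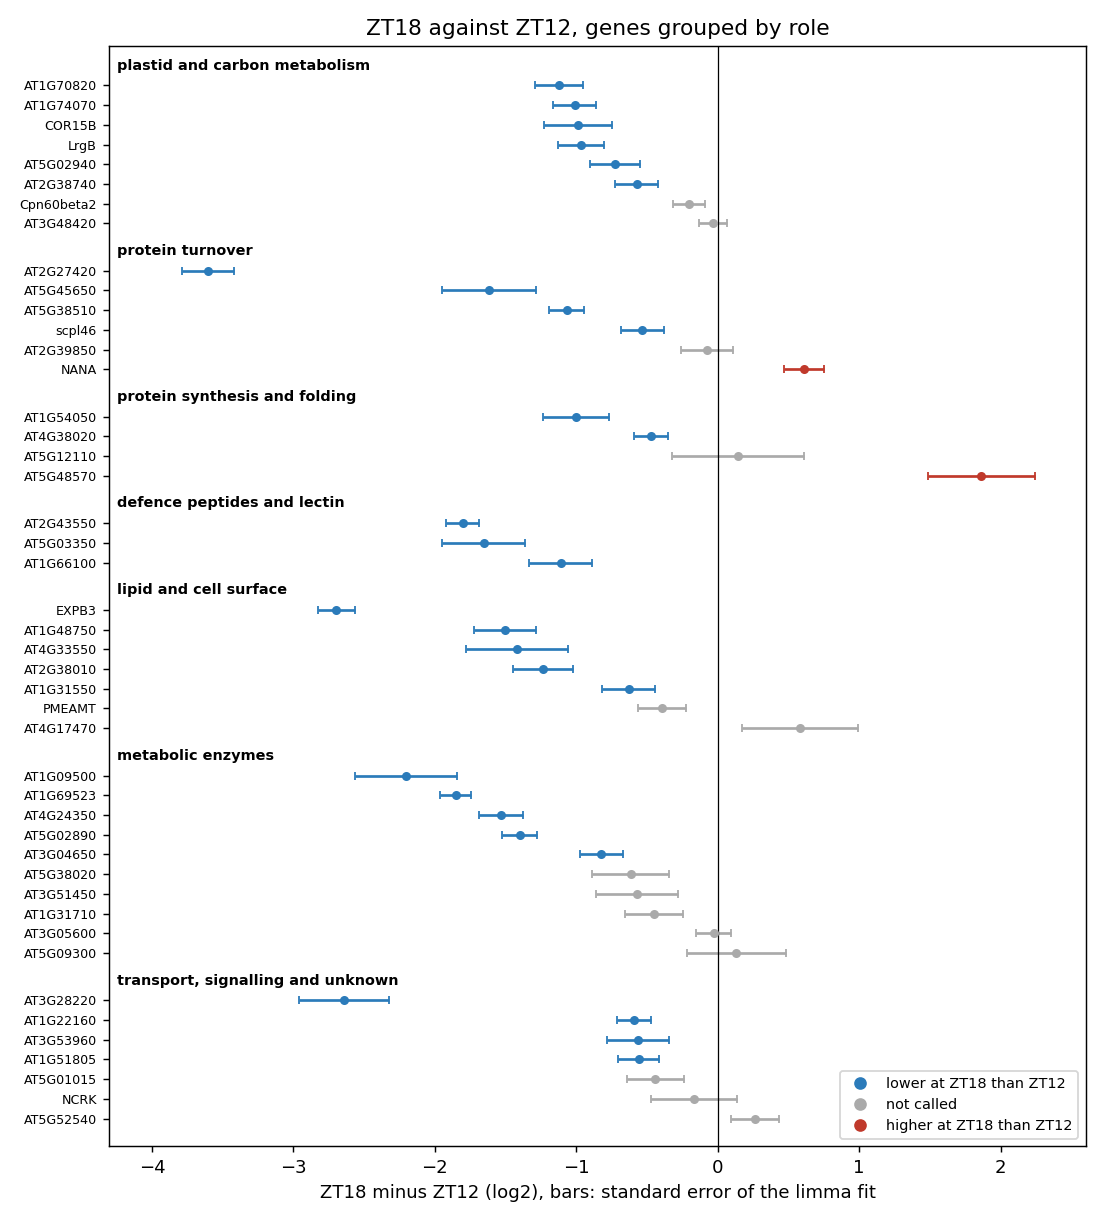
ZT18 minus ZT12 difference in log2 expression for the 45 named genes, grouped by role, with the standard error of the limma fit. Blue points are called lower, red points higher and grey points not called; AT2G27420 at -3.60 and AT5G48570 at 1.86 mark the 2 ends.

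Of the 27 probe sets without a named gene, 19 were lower at ZT18 than at ZT12 and 8 were not called, and 19 were lower and 1 higher at ZT18 than at ZT6. The higher one was 249850_at, with 10.36, 9.98 and 10.28 at ZT18 and 9.44, 9.43 and 9.79 at ZT6 (0.65, limma adjusted p = 0.0487), a call that was lost in 12 of 22 alternative settings. Their highest time mean was 3.62-fold to 50.3-fold above ZT0.

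Genes of related pathways were read from lists by locus, where the platform annotation pairs a probe set with that gene alone. It does not list 8730 probe sets, the 27 unnamed members among them. Listed genes without a named probe set may lie among those, and nothing is said of them here. All ZT0 arrays lay below the other 9 in 1 of 2 core clock genes with a named probe set and 1 of 3 such light signalling genes. The same held for 1 of 2 glucosinolate genes and 2 of 5 cold and dehydration genes. Of 21 core clock genes 2 had a named probe set. Neither of these 2 was a member, and both were lower at ZT18 than at ZT12. Of 12 light signalling genes 3 had a named probe set. All 3 were lower at ZT18, and none of the 3 was a member. HYH was not low at dawn, with means of 10.86 at ZT0, 10.85 at ZT12 and 7.66 at ZT18. In BIC1 the ZT0 arrays overlapped those of ZT18. BIC2, an inhibitor of cryptochromes, had every ZT0 array below the other 9, with a margin of 0.24 and a mean of 4.54 at ZT18. Of 13 aliphatic glucosinolate genes 2 had a named probe set, both lower at ZT18 and neither a member, with a margin of 0.21 for BCAT4. Of 10 cold and dehydration genes 5 had a named probe set, 2 lower and 3 higher at ZT18 than at ZT12. The 3 higher ones stood above their ZT6 means at dawn. COR27 averaged 12.53 at ZT0 and 6.32 at ZT6, COR28 8.55 and 4.98, and COR47 13.88 and 13.16. COR15A, the neighbour of COR15B and close to it in sequence, averaged 9.78 at ZT0, 12.85 at ZT12 and 11.33 at ZT18, and missed the rule with a margin of 0.25. Probe sets of such close relatives may share signal, and this was not tested. Among directly adjacent genes of members in the RefSeq order (assembly TAIR10.1), 31 were tested. In 8 of these 31, COR15A among them, all ZT0 arrays lay below the other 9. That is a larger share than the 11.1% of all tested probe sets. How many of the 8 are, like COR15A, close in sequence to their member was not counted, and the cause was not tested. Of the 45 members with a named gene, no 2 lay within 3 genes of each other.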

How the data were processed

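The authors deposited log2 expression values per probe set, 1 per array, made with R 3.1, GCRMA and affy 1.42.3, per the submitters' processing notes, with no role or order given. Their settings are not given in the sources used here. The scale has a floor of 2.06, array medians ran from 6.27 to 6.43, and no detection calls were used, so a value of 4 served as detection limit. Precision is limited by having 3 arrays per time.

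Of 22746 probe sets other than 64 chip controls, 14016 reached 4 on at least 3 arrays and were fitted with limma 3.58.1 in R 4.3.3 (a mean per time over all 12 arrays, eBayes with variance trend, two-sided, Benjamini-Hochberg over all tested, threshold 0.05). All adjusted p-values come from this fit or its alternatives. Contrasts with ZT0 chose the members and were not tested. The platform annotation gives 1 gene for 13513 probe sets, several for 503, and does not list 8730. All 45 named members matched the RefSeq table of TAIR10.1, which gave symbols and gene order. It holds no gene descriptions, so key-word classes matched only EXPB3, scpl46 and Cpn60beta2, and genes were grouped by known role instead. That grouping was made after the values were seen.

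The members and lists were chosen with earlier results of these data known. The rule for named genes took the 10 widest margins, 3 genes on each side of the margin limit, the 6 largest calls each way, the 5 highest means, members of lists and at most 2 unnamed probe sets; other members were named after their values were seen. Of the 5 highest means, 261788_at and 249120_at have no gene and are not described. No pair of arrays was a copy: 73 to 190 tested values were equal. On simulated data for ZT18 versus ZT12 with 14016 probe sets, 75% of 100 changes of 1 log2 unit and 99% of 100 changes of 2 were recovered. False calls made up 5.95% of the calls. The simulated noise was independent and few probe sets changed, whereas the real contrast called 24.4% lower and 26.1% higher. These shares check the code and do not give the recovery in the real contrast. Alternatives changed the filter, scaling, variance model, arrays in the fit, block and covariate. Promoter motifs were not analysed here.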

Additional observations from a re-analysis of the deposited data

How the results depend on the processing

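The number of probe sets lowest only at ZT0 followed the limits of the rule. It was 313 with a margin of 0.5, 22 with 1.5 and 6 with 2, and 0 with time from the harvest characteristic. Median centring kept 69 of the 72 and quantile normalization 66. Leaving out single arrays gave 72 to 139, highest without ZT0 replicate 3. For ZT12 versus ZT6 the count of 3 calls was 1 with no filter, 9 in a fit to the arrays of the comparison only and 6 with the replicate block, and leaving out single arrays gave 0 to 5. It was 0 without ZT6 replicate 2, ZT6 replicate 3 or ZT12 replicate 1, 1 without ZT6 replicate 1 or ZT12 replicate 3, 2 without ZT12 replicate 2 and 5 without ZT0 replicate 3, and the cause was not tested. For ZT18 versus ZT12 (50 calls) and ZT18 versus ZT6 (52 calls), the 3' minus 5' covariate left 21 and 27. That signal was higher on every ZT18 array than on all others, so time and RNA quality cannot be told apart in these fits. The cause was not tested. Leaving out single arrays gave 46 to 53 and 44 to 53. The replicate block gave 50 and 52 and, in the named genes, ended the call of AT3G53960. Deviations from the time means correlated at -0.15 to 0.40 (median 0.09) for same-numbered arrays and at -0.35 to 0.19 (median -0.08) for differently numbered ones, and the same number was the best partner in 20 of 36 cases. The labels give no shared source for a number, so the block was kept as an alternative. In each of the 3 comparisons at least 1 same-numbered pair stood at 0.07 or below, while same-numbered pairs with a ZT0 array ran from 0.01 to 0.40. With the block 5.81% of all tested probe sets were called between ZT12 and ZT6, against 2.12% in the main fit. A shared source of same-numbered arrays was not tested. Of the 50 calls between ZT18 and ZT12, 21 held in all 22 settings, 21 were lost only with the covariate and 8 were lost in more. Of the 52 between ZT18 and ZT6 these numbers were 26, 16 and 10, and no called difference changed sign in any of the 3 comparisons. The motif alternative was not run. Differences near the detection limit of 4, as in ZT0 values of several members, are less certain.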
